A study of Mus musculus with 24 samples.

Results

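The H3K27ac peaks of weekly prednisone–treated males 6 days after the last injection were compared with those of weekly prednisone–treated males 4 days after it. Members were all peaks of the deposited peak lists of these groups, 32188 at day 6 and 17482 at day 4, or 49670 of the 469078 peaks in the 8 lists of the series. A day 6 peak that overlapped no day 4 peak by at least 1 bp was called gained, a day 6 peak with such an overlap was called kept, and a day 4 peak that overlapped no day 6 peak was called lost. All mice were males, of strain C57BL/6 by their labels and C57BL/6J by the study's methods, that received prednisone at 1 mg/kg i.p. weekly for 4 weeks from 10 weeks of age. The weekly scheme gave vehicle on the days between doses, and the scheme of this cohort also marks days without an injection. The groups differed in the day of harvest. Myofibers were isolated from the quadriceps. Each group had 2 H3K27ac libraries and 1 input library (chromatin sequenced without the antibody) but 1 peak list, and how its libraries were combined is not given in the sources used here. No value per library was therefore available, none of the values below has a replicate error, and no test between days was made. Intervals are 95% intervals (Wilson for percentages, exact Poisson for tags) and cover counting error only. The question was which regulatory regions carried H3K27ac as the time after the weekly dose grew longer.

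H3K27ac is acetylation of lysine 27 of histone H3, a mark of active promoters and enhancers, and the DNA of chromatin bound by an antibody to it was sequenced. Prednisone is converted to prednisolone, which binds the glucocorticoid receptor (GR), a nuclear receptor that binds DNA at response elements and recruits acetyltransferases at many of them. In skeletal muscle, GR controls genes of protein breakdown, fuel use and the circadian clock. In pulldowns of whole fibers, fewer nuclei carrying the mark and less of the mark per nucleus cannot be told apart.

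The depth behind the lists differed. The day 4 list rested on 7.52 M H3K27ac tags and 34.8 M input tags, and the day 6 list on 50.6 M H3K27ac tags and 20.1 M input tags, a ratio of 6.72 between the H3K27ac depths. The lowest findPeaks score (a tag number not scaled for depth) was 7 at day 4 and 25 at day 6. Each peak had a normalized tag count, its tags scaled to 10 M tags, which is the level used below and sums over the width of the peak. A region without a called peak was not a region without tags, since the lists give no tags for regions that were not called.

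Sequences of 6 peaks show what the sets looked like, the promoter peak and the intronic or intergenic peak of highest findPeaks score in each set after leaving out peaks with very high input. Another 5 are promoter peaks of listed genes that were chosen after their values were seen. Each is the stretch of the central 300 bases of a peak that lies outside annotated exons, on the + strand of GRCm38.p6 (mm10), read from the RefSeq assembly. Capitals mark a match on either strand to any of 7 motifs searched, which were the MEF2 consensus, ACANNNTGT (GR), CAGCTG (E-box), TGANTCA (AP-1), TCAAGGTCA (ERR), GGGCGG (GC box) and CCGGAAG (ETS). Gained peaks come before kept peaks and lost peaks.
Zfp687, gained promoter, chr3:95015921-95016220: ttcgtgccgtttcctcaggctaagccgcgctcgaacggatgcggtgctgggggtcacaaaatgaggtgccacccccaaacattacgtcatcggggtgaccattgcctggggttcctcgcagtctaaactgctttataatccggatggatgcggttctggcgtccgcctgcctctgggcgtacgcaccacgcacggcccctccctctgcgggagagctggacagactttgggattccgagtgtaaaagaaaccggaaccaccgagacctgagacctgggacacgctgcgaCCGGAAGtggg
Ugt1a1, gained intron, chr1:88215176-88215449: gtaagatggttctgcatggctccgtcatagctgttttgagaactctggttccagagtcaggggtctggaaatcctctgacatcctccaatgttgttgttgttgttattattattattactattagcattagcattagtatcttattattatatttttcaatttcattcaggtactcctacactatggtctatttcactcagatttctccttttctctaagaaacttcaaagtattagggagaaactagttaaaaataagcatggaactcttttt
Myh4, gained promoter, chr11:67237535-67237811: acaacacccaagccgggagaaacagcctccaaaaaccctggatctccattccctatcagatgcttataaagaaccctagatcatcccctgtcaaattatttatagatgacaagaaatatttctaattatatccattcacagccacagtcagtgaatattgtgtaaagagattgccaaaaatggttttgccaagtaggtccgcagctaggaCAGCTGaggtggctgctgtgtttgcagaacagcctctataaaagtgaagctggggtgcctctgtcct
Trdn, gained intron near the start, chr10:33083987-33084286: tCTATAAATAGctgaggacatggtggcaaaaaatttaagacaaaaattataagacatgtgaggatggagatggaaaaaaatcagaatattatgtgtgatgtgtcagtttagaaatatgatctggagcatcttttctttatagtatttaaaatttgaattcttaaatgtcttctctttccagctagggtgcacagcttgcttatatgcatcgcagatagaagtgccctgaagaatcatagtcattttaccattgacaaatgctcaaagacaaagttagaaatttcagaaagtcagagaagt
Ckm, promoter with a peak at day 6 alone, from a kept peak, chr7:19410845-19411093: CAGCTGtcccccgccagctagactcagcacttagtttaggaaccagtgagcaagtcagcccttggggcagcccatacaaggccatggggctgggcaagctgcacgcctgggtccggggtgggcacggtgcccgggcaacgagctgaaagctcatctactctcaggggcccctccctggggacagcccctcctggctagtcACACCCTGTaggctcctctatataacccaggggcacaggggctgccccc
Kif13a, kept promoter, chr13:46930269-46930568: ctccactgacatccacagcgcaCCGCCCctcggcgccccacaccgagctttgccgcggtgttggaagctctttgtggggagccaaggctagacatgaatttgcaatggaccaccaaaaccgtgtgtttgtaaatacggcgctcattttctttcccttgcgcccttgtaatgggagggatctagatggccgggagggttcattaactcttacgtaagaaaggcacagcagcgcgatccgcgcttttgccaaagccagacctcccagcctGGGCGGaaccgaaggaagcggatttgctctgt
Ndufs7, kept intron near the start, chr10:80249582-80249881: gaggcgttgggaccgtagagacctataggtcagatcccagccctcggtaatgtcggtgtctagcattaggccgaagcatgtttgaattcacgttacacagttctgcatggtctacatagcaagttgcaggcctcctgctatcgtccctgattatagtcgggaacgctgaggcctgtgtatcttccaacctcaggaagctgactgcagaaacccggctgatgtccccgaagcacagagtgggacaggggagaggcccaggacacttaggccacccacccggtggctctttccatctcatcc
B3gnt2, lost promoter, chr11:22859736-22859882: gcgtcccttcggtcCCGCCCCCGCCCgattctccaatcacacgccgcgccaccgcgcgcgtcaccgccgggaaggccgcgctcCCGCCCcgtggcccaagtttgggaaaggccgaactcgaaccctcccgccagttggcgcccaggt
Fkbp3, lost intron near the start, chr12:65073553-65073814: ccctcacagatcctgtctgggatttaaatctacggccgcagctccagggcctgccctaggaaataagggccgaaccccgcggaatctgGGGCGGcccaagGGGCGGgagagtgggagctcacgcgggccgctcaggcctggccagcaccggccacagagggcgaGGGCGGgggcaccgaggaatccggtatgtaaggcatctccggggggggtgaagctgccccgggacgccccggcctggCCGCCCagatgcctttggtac
Slc27a1, lost promoter, chr8:71568752-71568870: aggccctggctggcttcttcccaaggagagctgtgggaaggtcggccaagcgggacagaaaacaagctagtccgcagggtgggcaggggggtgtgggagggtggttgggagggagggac
Esrra, lost promoter, chr19:6922275-6922425: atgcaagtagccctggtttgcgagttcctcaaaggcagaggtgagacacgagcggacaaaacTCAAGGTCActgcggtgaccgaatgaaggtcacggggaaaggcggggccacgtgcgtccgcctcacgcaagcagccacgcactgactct

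The stretches at Ckm, encoding muscle creatine kinase, and Myh4, encoding the fast myosin heavy chain IIb, held 1 E-box each, the letters bound by MyoD and its relatives. The Ckm stretch also held 1 match to the GR letters. The stretch at Trdn, encoding triadin of the calcium release complex, held 1 match to the MEF2 consensus and had a GC content of 33%. The lost stretch at Esrra, which encodes the estrogen-related receptor ERRα, held 1 ERR match and lies between Esrra and the end of the neighboring Catsperz. The printed stretches of the lost peaks at B3gnt2 and Fkbp3 held 3 and 4 GC boxes and had GC contents of 73.5% and 69.1%, against 65.2% and 66.5% over the whole peaks. The stretches at Ugt1a1, Ndufs7 and Slc27a1 held no match to any of the 7 motifs. A match describes letters and not a bound site.

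Most peaks of either day were not called on the other. At day 6, 26445 of 32188 peaks were gained (82.2%, 81.7% to 82.6%) and 5743 were kept. At day 4, 11603 of 17482 peaks were lost (66.4%, 65.7% to 67.1%) and 5879 were kept. In females, 72.2% of 123249 day 6 peaks had no day 4 peak and 42.2% of 67503 day 4 peaks had no day 6 peak, so that both shares were lower there than in males. The female lists also covered more of the genome, 159 Mb at day 6 and 71.1 Mb at day 4, against 26.7 and 12.7 Mb in males. Female lists were not cut to the length of the male lists, so the shares of the sexes are not on equal terms.

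The gained peaks were mostly distal and the kept peaks were often at promoters. Promoter windows ran from 1 kb upstream to 100 bp downstream of a start of transcription. They held 5.47% of gained peaks (5.2% to 5.75%), 39% of kept peaks (37.8% to 40.3%) and 9.74% of lost peaks (9.21% to 10.3%). Introns and intergenic DNA together held 90.2% of gained, 49.5% of kept and 79.2% of lost peaks. The median distance to the nearest start of a protein-coding gene was 32.9 kb for gained, 0.559 kb for kept and 15.5 kb for lost peaks. Exons held 3.08% of gained, 9.74% of kept and 8.95% of lost peaks.

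**Figure D1:**
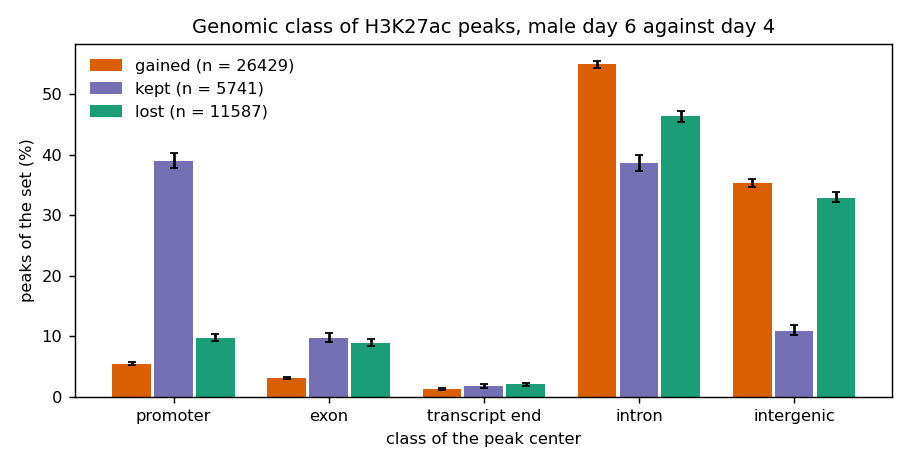
Percentage of gained, kept and lost peaks (y axis) by the class of the peak center (x axis). Bars are Wilson 95% intervals, which cover counting error only. Promoters held 39% of kept peaks against 5.47% of gained and 9.74% of lost peaks, and introns held 54.9% of gained peaks.

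The 3 sets also differed in level, width and base composition. The median normalized tag count was 5.74 in gained peaks, against 23.1 in the kept peaks at day 6, and 14.6 in lost peaks, against 26.6 in the kept peaks at day 4. As tags, the median gained peak held 29 (19.4 to 41.6) and the median lost peak 11 (5.49 to 19.7). The median width was 500 bp in gained and in lost peaks, the shortest width the peak caller gave, and 1227 bp in kept peaks at day 6. Median GC content was 43.5% in gained, 53.9% in kept and 50.3% in lost peaks. Peaks with at least 50% of their bases in soft-masked repeats made up 2.78% of gained, 0.853% of kept and 19.4% of lost peaks.

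Base composition and input depth moved with the day, and their part in the result was not tested. The median GC content of all peaks was 53% at day 4 and 44.5% at day 6. The median fold over input was 8.48 at day 4 and 6.17 at day 6. Within the kept peaks it was 8.86 at day 4 and 3.78 at day 6.

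Strong peaks were shared far more often than weak peaks. Ordered by normalized tag count, 89.4% of the strongest decile of day 4 peaks (87.9% to 90.8%) overlapped a day 6 peak, against 15.8% of the weakest decile. Of the day 6 peaks, 77.8% of the strongest decile (76.3% to 79.2%) overlapped a day 4 peak, against 0.684% of the weakest. The share fell across the first 7 deciles of both lists. In the strongest decile of the day 6 list, 716 peaks were gained, and 99.9% of these were called in at least 1 of the other 6 lists of the series. In the weakest decile, the same was true of 24.7% of the gained peaks. In the day 4 list, 185 peaks of the strongest decile were lost, of which 93.5% were called in another list, against 50.7% in the weakest decile.

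**Figure D2:**
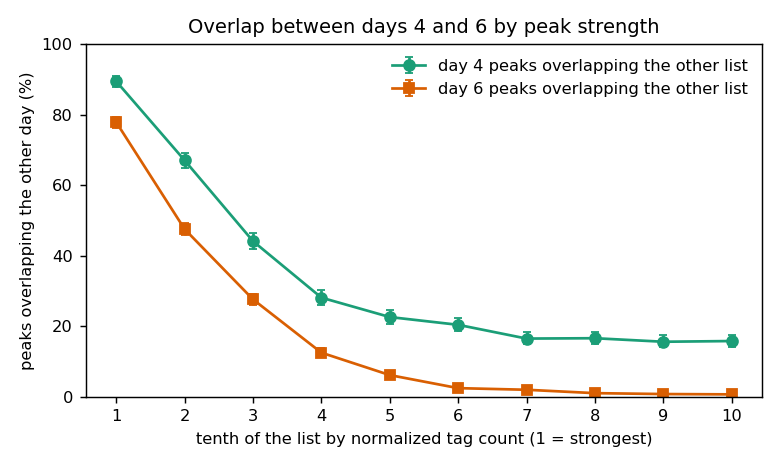
Percentage of peaks overlapping the list of the other day (y axis) by decile of the list, from the highest normalized tag count (1) to the lowest (10) on the x axis, with Wilson 95% intervals. It went from 89.4% to 15.8% for day 4 peaks and from 77.8% to 0.684% for day 6 peaks.

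Most gained peaks had a tag density at which few or no day 4 peaks were called. The lowest density of the day 4 peaks was 5 tags per 500 bp when rounded, and 3 of them lay between 4 and 5. Their 5th percentile was 8 and their median was 11, also rounded. Scaled from the day 6 depth to the day 4 depth, gained peaks would hold a median of 4.01 tags per 500 bp. On that scale 3992 of them (15.1%) would reach the rounded lowest day 4 density of 5, 282 (1.07%) would reach 8 and 25 (0.0945%) would reach 11. A further 11646 (44%) would lie between 4 and 5, so that the first of these shares depends on the rounding. The kept peaks at day 6, scaled in the same way, would reach 5 in 85.6% and 8 in 29.1% of cases. Of the 282 gained peaks that would reach 8, 93 lay at promoters, 86.9% were called in vehicle-treated males and 3 were called in no other list.

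The reverse held for the lost peaks. Day 6 peaks held a median of 28 tags per 500 bp, and the lost peaks, scaled up to the day 6 depth, would hold a median of 73.8. All 11603 would exceed the day 6 median on this scale, as would all 5879 day 4 peaks that were kept. This was fixed by the day 4 calling limit, since even the lowest day 4 densities would be at least 30 when scaled up. It therefore says nothing particular of the lost peaks. The same direction was seen where both days had a peak. In 5685 kept day 6 peaks on which densities could be paired with the day 4 peaks they overlapped, the median density per 10 M tags was 9.15 per 500 bp at day 6 and 15.8 at day 4, and it was higher at day 4 in 97%. The median ratio of day 6 to day 4 density was 0.576, with quartiles of 0.467 and 0.706. The day 6 peaks of these pairs had a median width of 1232 bp against 809 bp at day 4, and 65.5% were the wider. Their median normalized tag counts were closer, 23.1 at day 6 and 26.6 at day 4. A pair also needed a day 4 peak above the calling limit. The part of width and of that limit in the ratio was not tested. After allowing for this ratio as well as for depth, 99.9% of gained peaks would reach the lowest day 4 density of 5, 25.7% would reach 8 and 4.57% would reach 11, and 96.6% of lost peaks would still exceed the day 6 median. The number of gained peaks above the day 4 limit thus depended on which of these scales was used. Lost peaks again all lay above the day 4 calling limit before scaling.

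**Figure D3:**
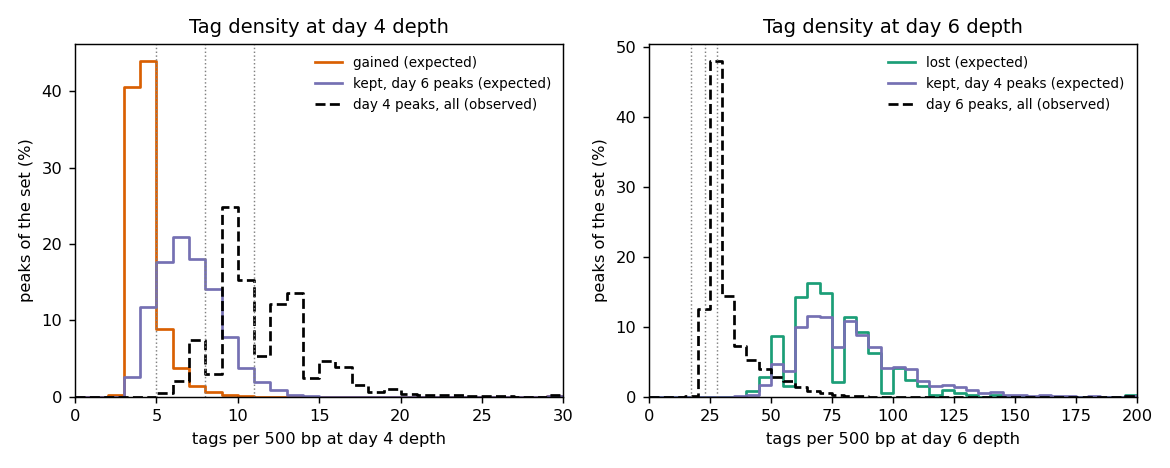
Percentage of peaks (y axis) by tags per 500 bp (x axis) at day 4 depth (left) and at day 6 depth (right). Solid lines are peaks of the other day scaled by depth alone, dashed lines are the peaks observed at that depth, dotted vertical lines are the lowest value, the 5th percentile and the median of the observed peaks, and the last bin holds all higher values. Gained peaks have a median of 4.01 at day 4 depth, below the lowest observed density, which is 5 when rounded. Lost peaks have a median of 73.8 at day 6 depth.

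Cutting both lists to 17482 peaks by findPeaks score gave nearly equal shares. Their nearness was fixed by the cut and says nothing of the days. Overlaps left similar numbers of kept peaks in lists of the same length, 5159 at day 6 and 5297 at day 4. The cut kept day 6 peaks with a score of at least 27, and left 12323 gained, 5159 kept and 12185 lost peaks, or 70.5% of day 6 peaks gained and 69.7% of day 4 peaks lost. Promoters held 9.23% of gained, 39.6% of kept and 10.8% of lost peaks after the cut. Gained peaks stayed more intronic, with 56.8% in introns against 46% of lost peaks, and had a lower median GC content, 45.1% against 50.7%. A cut to the same number by normalized tag count gave 11903 gained, 5579 kept and 11750 lost peaks. With that cut promoters held 10.1% of gained and 9.83% of lost peaks, so that the order of these sets turned.

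Kept peaks were found in nearly every list of the series, and many gained and lost peaks in none. Vehicle-treated males had a peak at 93.3% of kept, 23.9% of gained (23.4% to 24.4%) and 35.5% of lost peaks (34.6% to 36.4%). Males at day 8 had one at 81.8% of kept, 11.7% of gained and 15.4% of lost peaks. Of the gained peaks, 46.4% were called in no other list and 5.32% in all 6 others. Of the lost peaks, these shares were 38.1% and 5.52%, and of the kept peaks 0.348% and 64%. Female day 6 was the list that held most of the lost peaks (55.5%), and female day 8 the list that held most of the gained peaks (44.4%). The female day 6 list was also the longest of the series, with 123249 peaks, and the female day 8 list held 81696.

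At promoters the picture differed from that at distal peaks. Vehicle-treated males had a peak at 71.1% of gained promoter peaks (68.7% to 73.4%) and at 74% of lost promoter peaks (71.4% to 76.5%), and only 4.56% and 4.34% were called in no other list. Among intronic and intergenic peaks, vehicle-treated males had a peak at 20.5% of gained and 28.7% of lost peaks, and 49.5% and 45.3% were called in no other list.

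**Figure D4:**
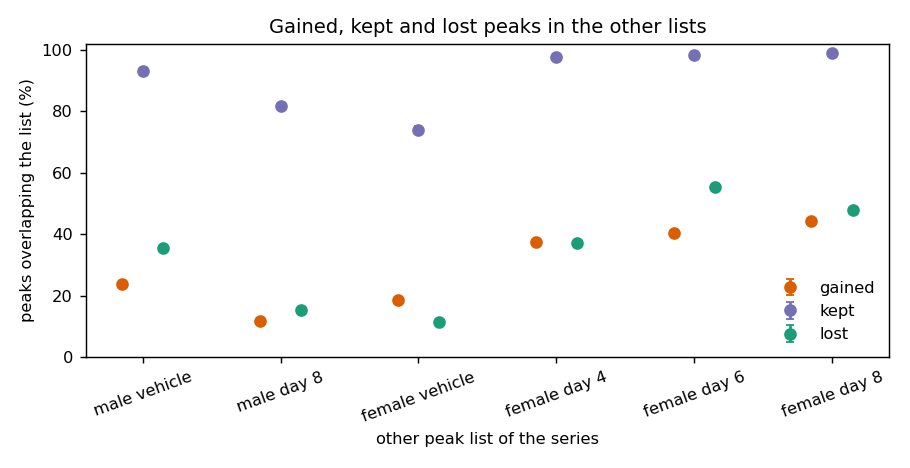
Percentage of gained, kept and lost peaks (y axis) that overlap a peak of each of the other 6 lists (x axis), with Wilson 95% intervals that are about the size of the points. Kept peaks lie between 74.1% and 99.2%, gained peaks between 11.7% and 44.4%, and lost peaks between 11.2% and 55.5%.

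Promoters were then followed by gene, for 20021 protein-coding genes on autosomes. Here gained, kept and lost refer to the promoter window of the gene, which held a peak at day 6 alone, on both days or at day 4 alone. A promoter was gained at 1935 genes (9.66%), kept at 3849 (19.2%) and lost at 1747 (8.73%), and 12490 genes had no promoter peak on either day. The shares of all genes given below include these 12490 (62.4%) in their base. A gene list with few such genes is therefore set against an unlike base. Of the gained promoters, 1648 (85.2%) held a gained peak and 287 (14.8%) held kept peaks alone, whose day 4 partners lay outside the window. Of the lost promoters, 1559 (89.2%) held a lost peak and 188 (10.8%) kept peaks alone. With lists of equal length these were 1607 (8.03%), 3510 (17.5%) and 2086 (10.4%) by score, and 1730 (8.64%), 3781 (18.9%) and 1815 (9.07%) by normalized tag count. Vehicle-treated males had a promoter peak at 83.5% of the genes with a gained, 97.6% with a kept, 80.6% with a lost and 26.3% with no promoter peak. Of the 1935 genes with a gained promoter, 1340 (69.3%) had a day 6 peak there that would reach the lowest day 4 density of 5 at day 4 depth. At 205 (10.6%) such a peak would reach 8 tags per 500 bp. These peaks include kept peaks as well as gained peaks. With genes divided into quartiles by promoter GC content, the share with a lost promoter went from 2.62% in the lowest quartile to 13.8% in the highest, whereas the share gained was 6.45% and 8.55% in these quartiles and 12.2% in the quartile between 45.1% and 50.1% GC.

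Genes of the contractile apparatus were among those gained at day 6. Of 30 genes of the fast and shared sarcomere, 10 gained a promoter peak (33.3%, against 9.66% of all genes), 10 kept one, 2 lost one (6.67%, against 8.73%) and 8 had none. With lists of equal length 8 were gained by score, Myh4 no longer among them, and 9 by normalized tag count. At Tnnt3, Ttn and Myoz1 the promoter was reached by a kept peak, so that 7 of the 10 promoters held a gained peak. Tnnt3, encoding fast troponin T, had a peak of 5251 bp at chr7:142495615-142500866 with a normalized tag count of 117 at day 6 and no peak at its promoter at day 4. Myl1, encoding the fast alkali myosin light chain, had a peak of 9933 bp with 106 at day 6. The titin gene Ttn had 44.1, the skeletal α-actin gene Acta1 39.4, the calsarcin gene Myoz1 32, the actin-binding Xirp2 22.7, and Myh4 51.4. Xirp2 was called in 2 of the other 6 lists and the rest of these promoters in at least 5. At day 4 depth, 6 of the 10 would reach the lowest density called and 1, Tnnt3 with 8.35 tags per 500 bp, would reach 8.

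The lost sarcomere promoters were those of Actn3, which encodes the α-actinin of fast fibers, and Mybpc2, which encodes fast myosin-binding protein C. They had day 4 normalized tag counts of 34.6 (26 tags, 17 to 38.1) and 33.3 (25 tags, 16.2 to 36.9), and both promoters were called in all 6 other lists. The day 4 peak at Actn3 was a kept peak, with its day 6 partner outside the promoter window. Among the kept promoters, the tropomyosin gene Tpm1 had 71.8 at day 4 and 71 at day 6, Tpm2 26.6 and 39, the M-band gene Myom1 23.9 and 28.1, and the fast troponin C gene Tnnc2 22.6 and 14.4. Peaks covered 29149 bp of the bodies of the 30 genes at day 4 and 108789 bp at day 6. Coverage was greater at day 6 at 22 and smaller at 5 of them, where over all genes it was greater at 33.9% and smaller at 19%. Of 13 genes of the slow sarcomere, 1 was gained (Myl6b, 30.1), 1 lost (Ankrd2, 16 at day 4), 2 kept and 9 had no peak on either day. Gained and lost promoters were thus 7.69% each, near the 9.66% and 8.73% of all genes.

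Energy metabolism of muscle followed the sarcomere. Of 20 genes, 7 gained a promoter peak (35%, against 9.66% of all genes), 9 kept one and none lost one. The genes with a gained promoter were Ckm with a normalized tag count of 85.3, the mitochondrial creatine kinase gene Ckmt2 with 48.7, the AMP deaminase gene Ampd1 with 50.2, the pyruvate dehydrogenase kinase gene Pdk4 with 51.8, the phosphofructokinase gene Pfkm with 45.3, the phosphoglycerate mutase gene Pgam2 with 37.8 and the glycogen synthase gene Gys1 with 25.1. At Ckm, Pgam2 and Gys1 the day 6 peak was a kept peak whose day 4 partner lay outside the promoter window, so that 4 of the 7 promoters held a gained peak. All 7 would reach the lowest day 4 density at day 4 depth, and Gys1, at 9.16 tags per 500 bp, was the 1 that would reach 8. Vehicle-treated males had a promoter peak at 19 of the 20 genes. The kept genes included those of aldolase A (Aldoa, 226 at day 4 and 141 at day 6), the muscle enolase (Eno3, 78.5 and 119), glycogen phosphorylase (Pygm, 99.8 and 40.4) and the insulin-regulated glucose transporter GLUT4 (Slc2a4, 63.8 and 15). As a density at day 4 depth, all 4 were lower at day 6, as were 97% of the paired kept peaks. The densities were 15.2 and 9.4 tags per 500 bp at Aldoa, and 10.7 and 8.47 at Eno3. At Pygm they were 13.6 and 8.16, and at Slc2a4 8.06 and 7.36. The Slc2a4 values are of peaks that do not overlap, at chr11:69945701-69948675 at day 4 and chr11:69948747-69949513 at day 6.

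Of 27 nuclear genes of oxidative phosphorylation, 8 gained a promoter peak (29.6%, against 9.66% of all genes), 16 kept one, 2 lost one (7.41%, against 8.73%) and 1 had none. All 8 gained promoters held a gained peak. The gained genes encode subunits of complex I (Ndufb5 with a normalized tag count of 41.9, Ndufv2 with 28.5 and Ndufa4 with 21.6), complex II (Sdhd, 11.5), complex III (Uqcrc2, 28.3, and Uqcrc1, 19.8), complex IV (Cox4i1, 31.8) and ATP synthase (Atp5g3, 29.9). Ndufa4 and Cox4i1 were named after their values were seen. All 8 would reach 5 tags per 500 bp at day 4 depth, and 2, Sdhd with 8.65 and Ndufa4 with 8.51, would reach 8. All 8 promoters had a peak in vehicle-treated males and in males at day 8. The lost genes were Cox6a2 (34.6 at day 4) and Cox8b (20), which encode the heart and muscle forms of 2 complex IV subunits, and the peak at Cox6a2 was a kept peak with its day 6 partner outside the promoter window. Of 18 housekeeping genes, 4 were gained (Rpl13a, Rpl4, Psmd1 and Hnrnpa1, 22.2%), 12 kept and 1 lost (Ppia, 46.6 at day 4, also from a kept peak), so that gained promoters were not limited to muscle genes. After cutting to equal length by score 2 of the 18 were lost.

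Calcium handling is a pathway the study followed in males. Of 22 genes, 4 gained a promoter peak (18.2%, against 9.66% of all genes), 11 kept one, 1 lost one (4.55%, against 8.73%) and 6 had none. At equal list length, 9 were kept and 3 lost by score, and 10 were kept and 2 lost by normalized tag count. The gained peaks were at Trdn with a normalized tag count of 57, the triad gene Jsrp1 with 18.4, the kinase gene Camk2a with 15.6 and Stac3, an adaptor of the calcium channel, with 14.8. Trdn had no peak over its gene body at day 4 and 10 at day 6, which covered 8039 bp. Jsrp1 and Camk2a would reach 8 tags per 500 bp at day 4 depth, with 9.12 and 8.06. Stac3, with 6.38, would reach 5, and Trdn, with 4.17, would not. The promoter lost in the full lists was that of Cacna1s, encoding the voltage sensor of the transverse tubule, with 45.2 at day 4 (34 tags, 23.5 to 47.5). It was called in all 6 other lists. Kept promoters included the SERCA1 gene Atp2a1 (69.2 and 65.1), calsequestrin Casq1 (87.8 and 31.5), the junctophilin gene Jph2 (22.6 and 51.2) and the channel subunit gene Cacnb1 (21.3 and 13.6).

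Of 24 known targets of GR, 14 promoters were kept, against 19.2% of all genes, and 6 had no peak on either day. A further 3 were gained (12.5%, against 9.66%) and 1 was lost (4.17%, against 8.73%). Gained were Cdkn1a, encoding the cell cycle inhibitor p21, with a normalized tag count of 38.8, Pdk4, and Angptl4, encoding an inhibitor of lipoprotein lipase, with 11.9. The metallothionein gene Mt1 was lost (29.3 at day 4, 22 tags, 13.8 to 33.3). The peaks at Cdkn1a and Mt1 were kept peaks whose partners lay outside the promoter window. Promoters that held a gained peak were thus 8.33%, close to the 8.23% of all genes. The Mt1 promoter was called in vehicle-treated males and at 3 days in females. The clock gene Per1 had 249 at day 4 and 215 at day 6, and the GR gene Nr3c1 61.2 and 33.2. The glutamine synthetase gene Glul had 53.2 and 54.4, and the sestrin gene Sesn1 22.6 and 65.1. The Sesn1 values are of different peaks far apart, at chr10:41887336-41888120 at day 4 and chr10:41809575-41813473 at day 6, so they do not compare 1 region. Fkbp5, encoding an immunophilin of the GR complex, had no promoter peak on either day, with 1 peak over its gene body at day 4 and 4 at day 6.

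Of 10 other genes that the study named in its ChIP experiments, 5 were kept, 1 was lost and 4 had no promoter peak on either day. Among all genes, 19.2% were kept, 8.73% were lost and 62.4% had no promoter peak. Slc27a1, encoding the fatty acid transporter FATP1, was the 1 with a lost promoter peak, at chr8:71568342-71569462, with a normalized tag count of 35.9 at day 4 (27 tags, 17.8 to 39.3). All 6 other lists had a peak there. Kept were Tnnc1, encoding slow and cardiac troponin C (65.2 at day 4 and 36.4 at day 6), the PI3 kinase genes Pik3c2a (49.2 and 43.1) and Pik3ca (12 and 16.6), Akt1 (27.9 and 7.91) and the estrogen receptor gene Esr1 (13.3 and 17.6). At Pik3ca the number of peaks over the gene body was 1 at day 4 and 7 at day 6. The lipid droplet genes Cidea and Cidec, the slow troponin T gene Tnnt1 and the T-type channel gene Cacna1h had no promoter peak on either day.

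In the IGF1 and PI3K pathway, which drives muscle growth through mTOR, 12 of 21 promoters were kept, 3 gained, 3 lost and 3 had no peak. Gained and lost promoters were 14.3% each, against 9.66% and 8.73% of all genes. Gained were Gsk3b with a normalized tag count of 95.9, the translation repressor gene Eif4ebp1 with 53.8, and the Akt-activating kinase gene Pdpk1 with 6.13. At day 4 depth these 3 would hold 5.91, 7.26 and 4.61 tags per 500 bp, so that Pdpk1 would not reach 5. Lost were the receptor gene Igf1r, with 35.9 at day 4 (27 tags, 17.8 to 39.3) and 5 other lists, the mTOR kinase gene Mtor with 18.6 and 5 other lists, and Tsc2, an inhibitor of mTOR, with 16 and 6 other lists. The day 6 peaks at Gsk3b and Eif4ebp1 were kept peaks with day 4 partners outside the promoter window, and Gsk3b was not called with lists of equal length by score. Promoters that held a gained peak were thus 4.76%, below the 8.23% of all genes. The kept genes Insr (30.6 and 32.4), Irs2 (85.1 and 36.6), Pik3r1 (67.8 and 48.5) and Itga5 (99.8 and 36.8) encode the insulin receptor, its substrate, a PI3 kinase subunit and an integrin.

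Lipid metabolism, the pathway the study followed in females, had 6 gained, 5 lost, 15 kept and 10 promoters without a peak among 36 genes. Gained promoters were 16.7% and lost promoters 13.9%, against 9.66% and 8.73% of all genes. Gained were Pdk4 (51.8), the uncoupling protein gene Ucp3 (44.1), Angptl4 (11.9), the fatty acid transporter gene Cd36 (10.3), the triglyceride synthesis gene Dgat2 (6.53) and the phospholipid synthesis gene Chpt1 (6.33). Cd36 and Dgat2 were not called with lists of equal length by score, and 3 of the 6 would reach 5 tags per 500 bp at day 4 depth. Lost, with day 4 normalized tag counts, were Slc27a1 (35.9), the mitochondrial carnitine enzyme gene Cpt2 (26.6), the lipoprotein lipase gene Lpl (22.6), the nuclear receptor gene Ppara (16) and the electron transfer gene Etfdh (14.6). The peaks at Ucp3 and Lpl were kept peaks with partners outside the promoter window. The last 4 lost promoters were each called in 4 or 5 of the other lists, vehicle-treated males included. Kept genes included the triglyceride lipase gene Pnpla2 (53.2 and 76), the related Pnpla7 (49.2 and 48.3), the corepressor gene Nrip1 (27.9 and 26.7) and the lipid droplet gene Plin2 (9.31 and 23.5).

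Of 19 genes of muscle atrophy, 11 kept a promoter peak, 3 gained one (15.8%, against 9.66% of all genes), 4 lost one (21.1%, against 8.73%) and 1 had none. Fbxo40, encoding a muscle ubiquitin ligase for IRS1, was gained with a normalized tag count of 69.4 over 4359 bp, the cathepsin L gene Ctsl with 29.3, and the myostatin gene Mstn with 23.7. Ctsl, at 9.76 tags per 500 bp, would reach 8 at day 4 depth. Fbxo40, at 5.98, would reach 5, and Mstn, at 3.94, would not. Lost at day 6 were Mt1 (29.3), Gadd45a (25.3), Trim54, encoding the MuRF3 ligase (21.3), and Fbxo31 (10.6, 8 tags, 3.45 to 15.8). The kept promoters included Foxo3 (39.9 and 50.2), Ddit4 (51.9 and 11.3), Gabarapl1 (42.6 and 27.3) and Bnip3 (18.6 and 66.1), of which Foxo3 encodes the transcription factor that drives ubiquitin ligase genes in atrophy and the last 2 encode autophagy proteins. The ubiquitin ligase genes Fbxo32 and Trim63, the usual markers of atrophy, were kept and are named here after their values were seen, with 38.6 at day 4 and 70.6 at day 6 for Fbxo32 and 16 and 13.8 for Trim63.

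Of 26 muscle transcription factors, 11 promoters were kept, 4 gained, 4 lost and 7 had no peak. Gained and lost promoters were 15.4% each, against 9.66% and 8.73% of all genes. The gained promoters were those of the coactivators of oxidative metabolism Ppargc1b (85.1) and Ppargc1a (26.7), of Mef2c (47.5) and of the myogenic factor Myf6 (22.4). At Ppargc1b the day 6 peak covered 4036 bp and would hold 7.93 tags per 500 bp at day 4 depth, just under the 5th percentile of day 4 peaks. Myf6 and Ppargc1a, with 5.44 and 5.12, would reach 5, and Mef2c, with 3.92, would not. Lost were Smad3, a mediator of myostatin and TGF-β signals, with the highest lost level of any listed gene (78.5, 59 tags, 44.9 to 76.1), the histone deacetylase gene Hdac4 (39.9), Esrra (29.3) and the fast fiber factor Tbx15 (29.3). These 4 promoters were called in all 6 other lists. The peaks at Ppargc1b and Tbx15 were kept peaks with partners outside the promoter window. The kept promoter of Mef2d had 334 at day 4 and 233 at day 6, Nr4a1 93.1 and 47.7 and Six4 73.2 and 16.2. These 3 kept examples had the lower level at day 6, where density was also lower in 97% of paired kept peaks. The Six4 peak was 2663 bp wide at day 4 and 889 bp at day 6.

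Of 19 clock genes, 12 were kept, 3 gained (15.8%, against 9.66% of all genes) and 2 lost (10.5%, against 8.73%). The gained genes Per3 (21.2), Cry2 (17) and Per2 (9.5) encode repressors of the clock. At day 4 depth they would hold 8.25, 6.85 and 4.55 tags per 500 bp, so that Per2 would not reach 5. Among the lost genes was Arntl, encoding the activator BMAL1, with 31.9 at day 4 (24 tags, 15.4 to 35.7). Its promoter was called in all 6 other lists. Beside Per1, the kept examples were Nr1d1 (94.4 at day 4 and 143 at day 6), Nr1d2 (45.2 and 39.2), which encode the REV-ERB repressors, and Ciart (17.3 and 18.2). The study's methods give a time of day for the mice of the force measurements, and none separately for the ChIP-Seq mice.

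**Figure D5:**
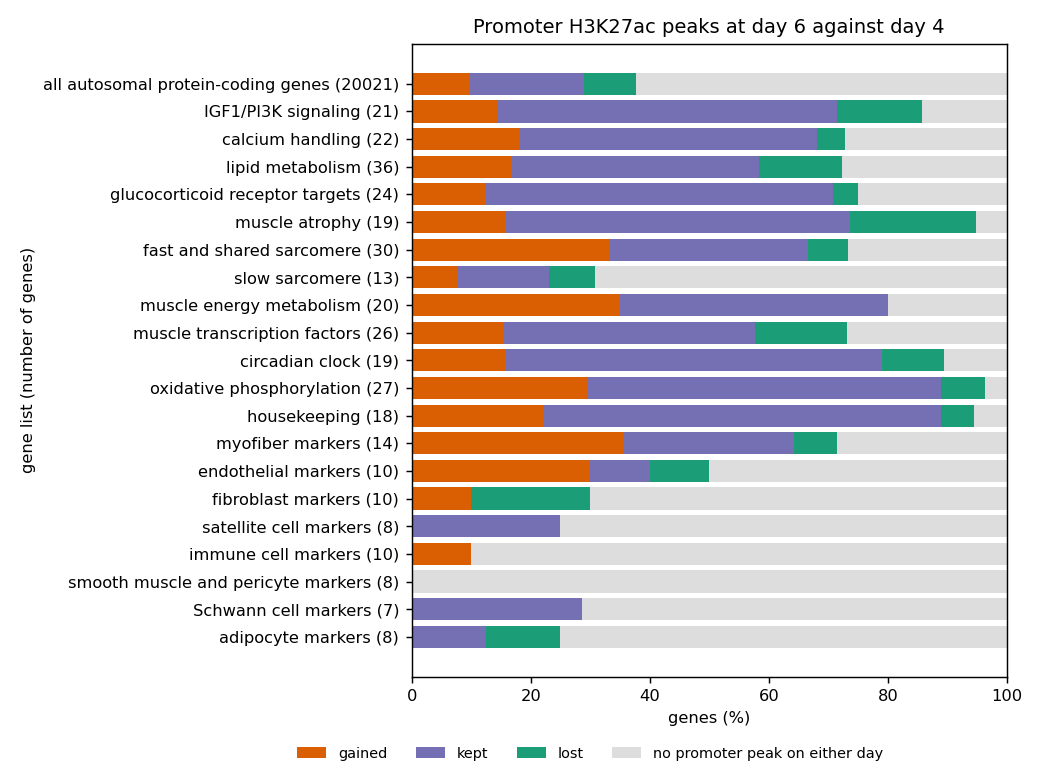
Percentage of genes (x axis) whose promoter was gained, kept or lost, or had no peak on either day, for all autosomal protein-coding genes and for each gene list (y axis, number of genes in parentheses). Gained promoters made up 9.66% of all genes, 33.3% of fast and shared sarcomere genes, 35% of energy metabolism genes and 29.6% of oxidative phosphorylation genes. The bases of these shares are unlike. Of all 20021 genes, 12490 had no promoter peak on either day, whereas 22 of 30, 16 of 20 and 26 of 27 genes of these lists had one.

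The label of the tissue was checked against cell type markers. Of 14 myofiber markers, 5 had a promoter peak at day 4 and 9 at day 6, against 11 in vehicle-treated males, and Mb, Neb, Myh1 and Tnni2 had none on either day. Markers of some other cells had promoter peaks as well. For 10 endothelial markers the numbers were 2 and 4 (Pecam1, Tek and Erg gained, Flt1 lost, Egfl7 kept), and for 10 fibroblast markers 2 and 1 (Pdgfra and Mfap5 lost, Dcn gained but not with lists of equal length). Of 10 immune markers only Lyz2 was called, at day 6 with a normalized tag count of 5.74 and in no other list. None of the 8 smooth muscle and pericyte markers was called on either day. Of 8 satellite cell markers Des and Sdc4 were kept, and Des is also expressed in fibers. Of 7 Schwann cell markers 2 were kept, Pmp22 among them. Of 8 adipocyte markers Pparg was kept and Lep was lost, with 12 tags at day 4 and no peak in another list. The share of these cells in the fibers of each day was not tested.

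The promoter peaks of highest score in the gained set were at Zfp687, Mmut, Rmnd5a, Kat7 and Armc6, with normalized tag counts of 19, 27.7, 21.8, 19.6 and 17.2. Mmut encodes a mitochondrial methylmalonyl-CoA mutase and Kat7 a histone acetyltransferase. These 5 peaks would hold 9.62 to 11.1 tags per 500 bp at day 4 depth, above the 5th percentile of day 4 peaks, and each was called in at least 5 other lists, vehicle-treated males included. The kept promoter peaks of highest score outside Sfi1 were at Kif13a, Ate1, Tm9sf1 and Lzts2, with 28.5 to 89.8, and the kept intronic peaks were at Ndufs7, Trak1, Ubxn4, Lsm4 and Kif1c, with 29.3 to 46.5. All 9 were called in all 6 other lists. The lost promoter peaks of highest score were at B3gnt2 (71.8), Bms1 (35.9), Ing1 (33.3), Oser1 (74.5) and Btbd2 (39.9). They held 25 to 56 tags and were called in 4 to 6 other lists. Their fold over input was 8.89 to 46.2, and that of the gained promoter peaks 2.32 to 3.71.

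Distal peaks of highest score coincided with very high input. Of the 5 gained distal peaks of highest score, 4 lay in introns of Sfi1 at chr11:3186641-3196840, where the input was 14.9 to 23.9 times its genome mean, and the Sfi1 promoter peak that was kept had an input of 29.3 times the mean. The lost distal peaks nearest to Esp38, Tcp10c, Cdk8 and Sfi1 had inputs of 58.1, 49.3, 20.1 and 22.8 times the mean. The remaining gained and lost distal peaks were at Ugt1a1 (42.1) and Fkbp3 (46.6), with inputs of 3 and 1.1 times the mean. Peaks with an input of at least 10 times the mean, a limit set after the data were seen, numbered 26 at day 4, of which 21 were lost, and 15 at day 6, of which 10 were gained. They held 61.4% of the tags in day 4 peaks and 29.4% of those in day 6 peaks. In the bin of 100 kb with the most gained peaks that would reach 8 tags per 500 bp at day 4 depth, leaving out high input, chr1:88200000-88300000 around Ugt1a1, Mroh2a and Hjurp, 14 peaks were gained, 5 were lost and none was kept, with inputs of 1.26 to 3.52 times the mean at day 6 and 4.42 to 6.6 times at day 4.

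Ranked by normalized tag count instead, an order chosen after the values were seen and without peaks of high input, the gained peaks nearest to Myl1 (106), Adcy9 (99.7), Abl1 (98.9), Srl (94.6) and Bag3 (94.6) followed the peak at Mroh2a (113). Srl encodes sarcalumenin of the sarcoplasmic reticulum, and Bag3 a cochaperone of the Z-disc. Apart from Mroh2a these peaks were 5334 to 9933 bp wide and were called in all 6 other lists. The lost peaks of highest level were nearest to Hr (113, 85 tags, 67.9 to 105), Nr2f2 (89.1), Bcl2l11 (82.5), Smad3 (78.5) and Smarca2 (75.8), leaving aside an intergenic peak of 500 bp near Cdh12 (78.5) with an input of 4.86 times the mean. Hr encodes a corepressor of nuclear receptors, Nr2f2 the orphan receptor COUP-TFII, Bcl2l11 the proapoptotic protein BIM and Smarca2 the chromatin remodeler BRM. These 5 lost peaks were called in 5 or 6 other lists. The kept peaks of highest level at day 6, also chosen after their values were seen, included those nearest to the mRNA decay gene Zfp36 (311 at day 4 and 290 at day 6), Mef2d (334 and 233), Per1 (249 and 215) and Junb (263 and 172), which were called in every list.

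By nearest gene, 9239 of 20021 genes (46.1%) had at least 1 gained peak and 7068 (35.3%) at least 1 lost peak. A gained peak that would reach 8 tags per 500 bp at day 4 depth was nearest to 1.24% of genes. Genes with the most gained peaks were Nfib and Rbfox1 with 43 each, Plcb4 and Rora with 33 each, Ebf1 with 32, Sox6 with 30 and Mef2c with 28. Nfib, Rora, Ebf1, Sox6 and Mef2c encode transcription factors, and Sox6 represses slow fiber genes. Genes with the most lost peaks, a set of 11603 against 26445 gained peaks, were Gse1 and Tns1 with 13 each and Mn1 with 12. The counts were not adjusted for the number of peaks in a set, nor for the length of the genes or of the DNA between them.

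The motif content of the 300 bases at the peak centers differed between the sets, as did their GC content. The GC box was found in 4.22% of gained (3.98% to 4.46%), 35.7% of kept and 14.6% of lost peaks, against 14.6% of all peaks and 48.1% of the 19504 RefSeq promoter windows of 300 bases at 16010 genes. The ETS letters were in 1.44% of gained, 8.74% of kept and 2.89% of lost peaks, and in 12.1% of promoters. The GR letters ACANNNTGT were in 11.1% of gained (10.8% to 11.5%), 5.64% of kept and 7.23% of lost peaks (6.77% to 7.72%), and in 5.91% of promoters. AP-1 letters were in 10.3%, 6.51% and 6.26%, and in 7.12% of promoters. Among intronic and intergenic peaks, the GR letters were in 11.5% of gained, 7.67% of kept and 7.96% of lost peaks, so that the order of gained over lost remained there. The 275 gained peaks on chromosomes that would reach 8 tags per 500 bp at day 4 depth held the GR letters in 6.55% (4.18% to 10.1%), below the 11.1% of all gained peaks.

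Matches to the MEF2 consensus were rare, in 1.14% of gained (1.01% to 1.27%), 0.801% of kept and 0.371% of lost peaks (0.276% to 0.499%), and in 0.487% of promoters. ERR letters were in 0.916%, 0.784% and 0.587%, and in 0.338% of promoters. The E-box was in 14.1%, 15.8% and 15.9%, close to the 15% of all peaks and the 15.8% of promoters. The GC box and the ETS letters followed the median GC content of the sets, lowest in gained and highest in kept peaks. The MEF2 consensus, rich in A and T, did not follow it throughout. It was most frequent in gained peaks, which had the lowest GC content. Its share was higher in kept than in lost peaks, although kept peaks had the higher median GC content, 53.9% against 50.3%. The part of base composition in these shares was not tested.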

How the data were processed

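H3K27ac ChIP-Seq of quadriceps myofibers from weekly prednisone–treated males at days 4 and 6 was analyzed from the peak lists that the authors deposited, 1 per group. Adapters were removed by the authors with homerTools. Alignment to mm10 used Bowtie2. For peak calling they ran findPeaks of HOMER in its histone style against the input and asked for a 2-fold excess. The submitters' processing notes also name Bowtie2 2.2.6 and TopHat2 2.1.0. The normalized tag count that the authors deposited is a signal scaled to 10 M tags. The deposited findPeaks score is not scaled for depth, and the deposited ratio is the fold of H3K27ac over input. Deposited counts of H3K27ac and input tags gave the depth. The p-value that the authors deposited for each peak was not used.

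Peaks were shared at an overlap of at least 1 bp. Each peak was classed by its center against GRCm38.p6 (mm10), using the 45756 curated transcripts of RefSeq. They were promoter (1 kb upstream to 100 bp downstream of a start), transcript end (100 bp before to 1 kb after an end), exon, intron and intergenic. Gene values covered 20021 protein-coding genes on autosomes. A promoter peak of a gene overlapped its promoter window, and its center could lie in another class. Where several peaks overlapped a promoter, the one with the highest normalized tag count is given. The day 4 and day 6 peaks given for a kept promoter therefore need not overlap. Tag densities were scaled between days by the ratio of depths. Printed stretches were cut at annotated exons so that no transcribed exon is shown. No replicate values could be had, so no model or test was fitted and no p-value was computed.

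The members and gene lists were chosen with earlier results of these data known. Named by rule were the 5 promoter and 5 distal peaks of highest score per set, the genes the study named for its ChIP, and listed genes whose promoter was gained or lost (up to 6 per list and direction) or kept (up to 4). Marker lists are reported as counts, and some genes that the rule names are not reported here. Alternatives were lists of equal length by score, fold or normalized tag count, an overlap of 50%, a distance of 1 kb, at least 4-fold excess over input, removal of peaks in repeats or with high input, and a promoter window of 500 bp on either side. Overlap steps were tested on simulated lists and against bedtools 2.31.1. Scripts ran in Python 3.11.15 with pandas 2.3.3, numpy 2.4.6, matplotlib 3.10.9, pysam 0.24.0 and scipy 1.17.1.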

Additional observations from a re-analysis of the deposited data

How the results depend on the processing

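The values given are, in order, the percentage of day 6 peaks gained, the percentage of day 4 peaks lost, and the percentages of gained, kept and lost peaks at promoters, which were 82.2, 66.4, 5.47, 39 and 9.74 as reported. With lists of equal length by score the first 2 were 70.5 and 69.7, and promoters held 9.23 of gained and 10.8 of lost peaks. With lists of equal length by normalized tag count, chosen after seeing the data, they were 68.1 and 67.2, with 10.1 for gained promoters, so that gained and lost changed order. With lists of equal length by fold over input, 95.5 and 95.4 were unshared, and no other value was computed. Asking for 50% of the peak to be covered gave 90.4, 74.2, 7.99, 44.1 and 11.8, and sharing within 1 kb gave 77.1, 57.8, 4.48, 34.9 and 8.83. Requiring a 4-fold excess over input gave 90.6, 85.3, 4.04, 34.4 and 16.3, with 1112 genes gained and 4045 lost, against 1935 and 1747. Without peaks in repeats, 62.2 of day 4 peaks were lost, with 11.6 at promoters. Of 49 alternative values, 28 lay outside the counting interval of the reported percentage or the limit set for a number of genes, and 21 did not. In each setting that gave the 3 promoter shares, the share of kept peaks was the highest. Removing peaks of high input, also chosen after seeing the data, and the promoter window of 500 bp moved no value by that measure. The cause of these changes was not tested.

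No paired analysis was possible because each group has 1 peak list for its 2 libraries, and no replicate could be left out for the same reason. The 7.52 M tags at day 4 limit what could be called there, and a lost peak of median size rests on 11 tags.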
